A study of Mus musculus with 6 samples.

Results

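Procr, Emcn, Mecom, Hlf, Mllt3, Mycn, Angpt1 and Slamf1 are genes whose transcripts mark or maintain hematopoietic stem cells, and here they were followed in sorted granulocyte-macrophage progenitors (GMPs), cells further down the myeloid path that make granulocytes and monocytes. The 8 genes were chosen by name, with earlier results of these data known. All 8 were found among the 37620 gene rows of the deposited table. RNA had been sequenced from GMPs of C57BL/6 mice in 2 groups of 3 libraries: Mx1-Cre Bap1 f/f mice, labelled knockout, and Bap1 f/f mice without Cre, the control. The labels put both groups at 65 days of age with polyI:polyC given at 42 days, whereas the series text places the injections earlier in life. PolyI:polyC switches on the Mx1 promoter, an interferon-responsive promoter that is active in many cell types, so in the labelled knockout mice Bap1, a nuclear deubiquitinase of histone H2A, should be lost in more than GMPs. Both groups carried floxed Bap1 and received polyI:polyC, and Cre was carried by the labelled knockout group alone, so that Cre and Bap1 deletion cannot be told apart. Cells had been gated as c-Kit-positive and CD34-positive, without Lineage or Sca1 antigens, and stained for Fc receptors.

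The targeted gene did not check the labels. Bap1 (ENSMUSG00000021901) stood at 2671, 3309 and 2968 normalized counts in the libraries labelled knockout, against 1343, 998.5 and 1076 in control libraries (log2 fold change 1.39, SE 0.14, limma adjusted p = 6.07e-05). A count over the whole gene includes exons that a floxed deletion would leave, and the direction was opposite to the label, so directions here follow the labels and are given as those of the libraries labelled knockout. GMP markers were high in all 6 libraries: the 9 listed ones, led by the granule protein genes Mpo and Elane, summed to 1094000 to 1590000 normalized counts in the libraries labelled knockout and 866500 to 939200 in control libraries, with 0 markers unread. Of the 9, limma called 4 higher in the libraries labelled knockout (44.4%) and 0 lower, beside 11.8% and 15% of all genes tested. These markers were thus read in both groups, but not all at equal levels. Libraries held 19464353 to 24085250 gene reads in the labelled knockout group and 24125905 to 25901725 in the control group, and nothing in the labels shows whether each came from its own animal, so p-values measure the spread between these libraries.

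Stem cell transcripts in such a population were read in bulk, so which of the sorted cells carried them was not tested. The 8 genes encode surface molecules, nuclear regulators and a secreted ligand. Procr, Slamf1 and Emcn stand for the surface molecules: the endothelial protein C receptor, the signalling receptor CD150 by which mouse stem cells are sorted, and endomucin, a sialomucin shared by endothelium and stem cells. Mecom (the zinc finger factor EVI1), Hlf (a basic leucine zipper factor of the PAR family), Mllt3 (AF9, a chromatin reader that recruits elongation factors and DOT1L) and Mycn (a MYC family factor) encode nuclear regulators. Angpt1 encodes angiopoietin 1, a secreted ligand of the receptor TEK.

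Promoters of the 3 genes that fell in the libraries labelled knockout, and of Hlf, which did not pass the test, are shown to let their base composition be compared. Each runs from 250 bases before to 50 after the gene's start, from RefSeq on GRCm38.p6, and capitals mark CG dinucleotides. The table held promoters of 7 of the 8 genes. Procr lies at chr2:155750967-155751266 on the plus strand, Emcn at chr3:137340828-137341127 on the plus strand, Mllt3 (its upstream start) at chr4:88033358-88033657 on the minus strand, and Hlf at chr11:90390868-90391167 on the minus strand.
Procr: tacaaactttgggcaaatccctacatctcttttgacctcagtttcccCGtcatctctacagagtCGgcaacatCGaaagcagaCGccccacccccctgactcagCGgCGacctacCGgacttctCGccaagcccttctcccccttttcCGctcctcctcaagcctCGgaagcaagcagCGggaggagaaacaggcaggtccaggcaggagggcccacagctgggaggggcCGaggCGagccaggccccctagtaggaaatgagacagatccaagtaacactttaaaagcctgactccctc
Emcn: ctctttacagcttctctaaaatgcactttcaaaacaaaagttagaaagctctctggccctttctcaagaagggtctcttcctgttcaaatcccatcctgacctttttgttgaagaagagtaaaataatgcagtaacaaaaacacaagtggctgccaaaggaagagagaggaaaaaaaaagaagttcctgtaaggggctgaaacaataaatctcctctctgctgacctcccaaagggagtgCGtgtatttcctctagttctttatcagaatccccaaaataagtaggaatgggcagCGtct
Mllt3: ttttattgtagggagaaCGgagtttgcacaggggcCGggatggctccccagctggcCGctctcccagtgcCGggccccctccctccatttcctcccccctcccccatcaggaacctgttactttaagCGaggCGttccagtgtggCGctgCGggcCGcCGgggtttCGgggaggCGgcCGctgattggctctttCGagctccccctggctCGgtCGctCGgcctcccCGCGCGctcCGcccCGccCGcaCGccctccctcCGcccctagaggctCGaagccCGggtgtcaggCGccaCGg
Hlf: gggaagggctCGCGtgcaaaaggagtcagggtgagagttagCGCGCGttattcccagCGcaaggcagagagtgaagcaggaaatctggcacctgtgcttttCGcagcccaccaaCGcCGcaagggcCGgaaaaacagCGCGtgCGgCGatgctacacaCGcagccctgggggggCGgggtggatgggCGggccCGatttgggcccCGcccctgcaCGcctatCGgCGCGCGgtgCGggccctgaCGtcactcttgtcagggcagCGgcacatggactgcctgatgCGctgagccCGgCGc
The genes that fell did not share a CG content. Emcn held 2 CG dinucleotides, Procr 13 and Mllt3 29, against a median of 7 over 32851 promoters, and Hlf held 30. The other start of Mllt3 in the table had 4. Of 5 motifs searched on both strands, AGATAA of GATA factors was in 11.2% of all promoters, CACGTG of MYC and MAX in 7.15%, CCGGAA of ETS factors in 14.9%, TGTGGT of RUNX factors in 16.8% and TTANNTAA of PAR factors in 6.0%. In the promoters of the 7 genes there was 1 match, CCGGAA in that of Hlf at position -125 from the gene's start, overlapping no other motif. The absence of these letters from a window says nothing about binding by a factor.

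Of the 8 genes, Procr, Emcn and Mllt3 fell in the libraries labelled knockout, 0 rose, and 5 did not pass the test. The test was limma on log2(normalized count + 1), adjusted by Benjamini-Hochberg over 14391 genes with a mean normalized count of at least 10 and called at 0.05. In the same fit 15% of all genes tested were called lower and 11.8% higher (2163 and 1695 genes), and after a correction for GC content and length that split turned to 1877 lower and 2588 higher. Without control replicate 2 it was 1417 and 1032, and without control replicate 3 it was 1372 and 1053. All 8 genes passed the filter on low values. Procr, Emcn and Mecom passed it through their control values alone and so had to differ, which leaves their share of calls without weight. With no filter beyond 1 read, again 3 were lower and 0 higher, where 10.1% of 20738 genes were called lower and 7.61% higher. In bulk RNA, fewer cells carrying a transcript and less transcript per cell cannot be told apart.

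**Figure D1:**
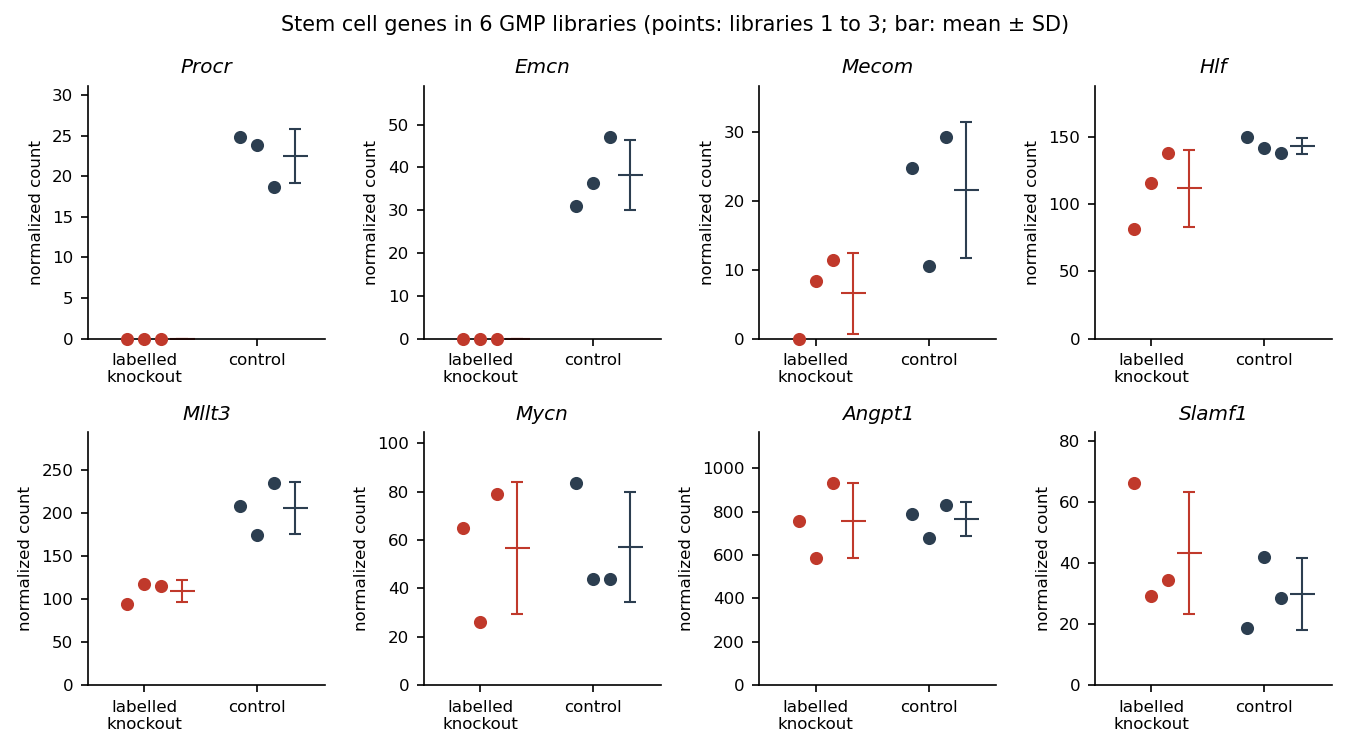
Normalized count of each of the 8 genes in the 3 libraries labelled knockout (left, red) and the 3 control libraries (right, dark), each panel with its own linear axis from 0, with the mean and SD beside the points. Procr and Emcn lie at 0 in the libraries labelled knockout, the groups of Mllt3 are separate, and the groups of the other 5 genes overlap.

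Among the surface molecules, Procr (ENSMUSG00000027611) had 0 reads in all 3 libraries labelled knockout, against 24.9, 23.9 and 18.7 normalized counts in control libraries. The control values rest on 28, 25 and 21 reads, and 3 reads would have stood at 3.20, 3.12 and 3.43 normalized counts in the libraries labelled knockout. Every control library thus lay well over that floor, and the receptor's transcript was at least 6.92-fold lower in the libraries labelled knockout when each library there is set at 3 reads. The limma log2 fold change was -4.54 (SE 0.86, adjusted p = 0.00281), a fitted value that depends on the pseudocount. Reads came from PCR without molecular identifiers, so floors and read numbers cover counting error only.

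Emcn (ENSMUSG00000054690) also had 0 reads in every library labelled knockout, against 31.1, 36.3 and 47.2 normalized counts, or 35, 38 and 53 reads, in control libraries. That made endomucin transcripts at least 11.8-fold lower in the libraries labelled knockout (log2 fold change -5.27, SE 0.78, limma adjusted p = 0.00063). Among the 1493 tested genes with a control mean of 20 to 50 normalized counts, 30 had 0 reads in all libraries labelled knockout (2.01%).

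Both genes are also read in endothelial cells, so markers of that type were set beside them. Cdh5 and Cldn5, which define endothelium, had 0 reads in all 6 libraries. Kdr and Plvap had 0 reads in the libraries labelled knockout and 1.9 to 6.2 and 2.7 to 15.2 normalized counts in control libraries. The summed level of the 10 endothelial markers ran from 2113 to 3213 normalized counts in the libraries labelled knockout and from 1773 to 2159 in control libraries, and most of it came from Pecam1 and Egfl7, which blood progenitors also express. Of the 4 endothelial markers tested, Tie1, a receptor, fell to 9.92 ± 8.57 normalized counts in the libraries labelled knockout, against 99.6 ± 14.8 in control libraries (SD, n = 3 each; limma adjusted p = 0.000935), and Egfl7, a secreted protein gene, was 2.48-fold higher (limma adjusted p = 0.000205). Esam averaged 17.75 against 50.3 (limma adjusted p = 0.101) and Pecam1 1098 against 1139 (0.817), so the sum covers members that went opposite ways. Of these, Tie1 passed the filter on low values through its control values alone. Cd34, a sort marker, was 2.90-fold lower in the libraries labelled knockout. Lymphoid markers summed to 1028 to 1313 in the libraries labelled knockout against 2115 to 2341 in control libraries. Of the 6 tested 5 fell (83.3%) and 0 rose, beside 15% and 11.8% of all genes tested. All but Cd79b passed the filter through control values alone, which leaves that share without weight. Basophil and mast cell markers summed to 20070 to 29990 against 50720 to 61070, with 4 of 9 tested lower (44.4%) and 1 higher (11.1%). The protease gene Prss34 carried most of that gap, at 891.0 against 27880 on average; without it the sums overlapped, at 19490 to 28840 in the libraries labelled knockout and 25330 to 30250 in control libraries, a setting chosen after seeing the data. Ms4a2 also fell, to 615.5 against 2958, and Fcer1a to 488.2 against 1631 (limma adjusted p = 2.02e-05 and 0.000122). Cpa3 was at 5821 against 8419 (limma adjusted p = 0.0438). The 1 that rose was the protease gene Mcpt8, at 10910 against 7027 (limma adjusted p = 0.0168). The part of these shifts in the result for Procr and Emcn was not tested.

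Slamf1 (ENSMUSG00000015316) went the other way in its mean but did not separate the groups. It stood at 66.1, 29.2 and 34.3 normalized counts in the libraries labelled knockout and at 18.7, 42.0 and 28.5 in control libraries. Labelled knockout replicate 1 was the highest of the 6, and the other 2 lay within the control range. The log2 fold change was 0.50 with a 95% confidence interval of -0.54 to 1.55 (limma adjusted p = 0.47), so that neither a fall nor a clear rise of CD150 transcripts could be shown.

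Among the nuclear regulators, Mllt3 (ENSMUSG00000028496) fell. Its normalized count was 94.9, 117.7 and 115.3 in the libraries labelled knockout, against 208.8, 174.9 and 235.3 in control libraries, and no library of one group reached the other. The mean was 109.3 ± 12.5 against 206.3 ± 30.3 (SD, n = 3 each), a 1.89-fold lower level in the libraries labelled knockout (log2 fold change -0.91, SE 0.24, limma adjusted p = 0.0166). All 3 libraries labelled knockout lay under all control libraries for 22.5% of genes tested. The call for Mllt3 was lost without control replicate 1 (limma adjusted p = 0.0577) or 3 (0.0868), and after correction for GC content and length (log2 fold change -0.63, adjusted p = 0.087).

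Hlf (ENSMUSG00000003949) was at 81.1, 115.6 and 138.2 normalized counts in the libraries labelled knockout and at 150.2, 141.4 and 138.2 in control libraries. The highest library labelled knockout met the lowest control library, while replicate 1 lay well under both groups' other libraries. Control libraries were close to each other, with a coefficient of variation of 4.33%, against a median of 17.9% over 2973 tested genes of like level (a mean within 2-fold); in the libraries labelled knockout it was 25.8%, against 24.7% for genes of like level. The log2 fold change was -0.39 (95% confidence interval -0.98 to 0.20, limma adjusted p = 0.317).

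Mecom (ENSMUSG00000027684) was the least read of the 8 in control libraries per length of transcript. It had 0, 8.33 and 11.4 normalized counts in the libraries labelled knockout (0, 8 and 10 reads), against 24.9, 10.5 and 29.4 in control libraries (28, 11 and 33 reads). Control replicate 2 lay under labelled knockout replicate 3, so the groups overlapped. The means were 6.58 ± 5.91 and 21.6 ± 9.87 (SD, n = 3 each). The log2 fold change of -2.10 had a 95% confidence interval of -4.20 to 0.01 (limma adjusted p = 0.13). It was -0.95 without labelled knockout replicate 1, the library with 0 reads, and -2.77 without replicate 3. Mecomos, an antisense gene that overlaps 81 exonic bases of Mecom in GENCODE M21, had 0 reads in each library.

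Mycn (ENSMUSG00000037169) stood at 65.1, 26.0 and 78.8 normalized counts in the libraries labelled knockout and at 83.5, 44.0 and 43.7 in control libraries. Each group spread widely, with a coefficient of variation of 48.3% in the libraries labelled knockout and 40.2% in control libraries, against 30.3% and 26.3% for genes of like level. The means of 56.6 ± 27.4 and 57.1 ± 22.9 were close (SD, n = 3 each), yet with a log2 fold change of -0.08 the 95% confidence interval ran from -1.11 to 0.94 (limma adjusted p = 0.915), so a change of up to about that size in either direction was within the error.

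The ligand gene Angpt1 (ENSMUSG00000022309) was by far the most read of the 8. It had 757.4, 587.2 and 932.9 normalized counts in the libraries labelled knockout, against 789.9, 678.4 and 831.6 in control libraries. The labelled knockout libraries included both the lowest and the highest of the 6 values. Its log2 fold change of -0.03 had the narrowest interval of the 8 genes, -0.43 to 0.36 at 95% (limma adjusted p = 0.91). An antisense gene that overlaps 737 of its exonic bases in GENCODE M21 had no row of its own, so reads of that gene could be counted under Angpt1 if strand was not used.

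**Figure D2:**
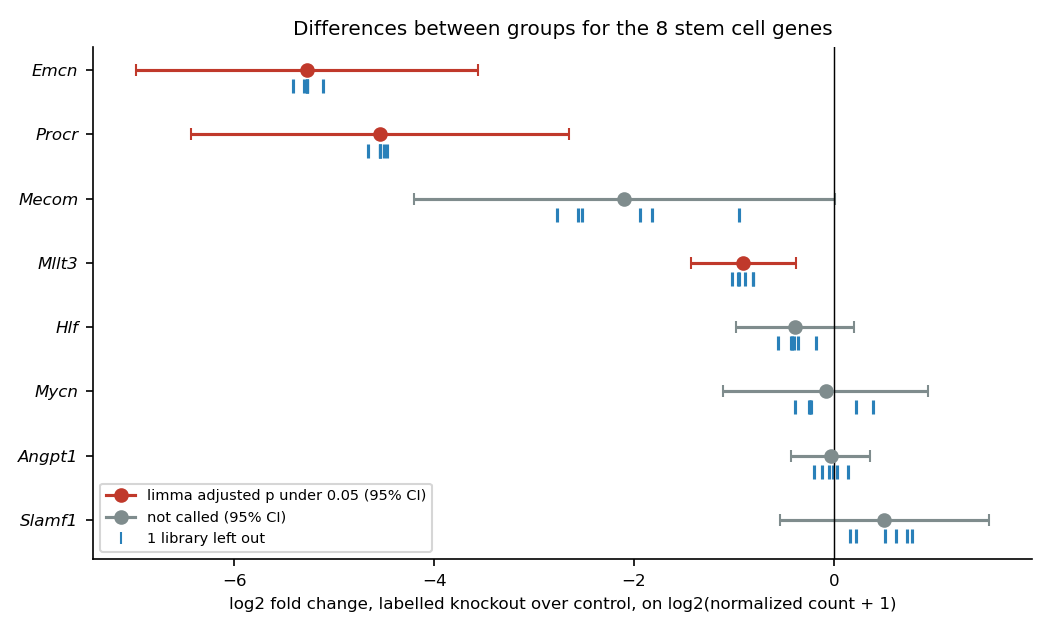
Log2 fold change of the 8 genes, libraries labelled knockout over control, with the 95% confidence interval from limma (red where the adjusted p was under 0.05, grey where not) and, as blue ticks, the value with each of the 6 libraries left out in turn. For Emcn at -5.27 and Procr at -4.54, with 0 reads in every library labelled knockout, the ticks that leave out one of those libraries lie at the main value by construction, while the ticks of Mycn and Angpt1 lie on both sides of 0.

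Levels between genes were set in order as normalized counts per kb of annotated exon. In the libraries labelled knockout the order was Angpt1 at 146 ± 33.2 per kb, Mycn at 17.2 ± 8.31, Hlf at 16.7 ± 4.3, Mllt3 at 9.11 ± 1.04, Slamf1 at 7.01 ± 3.26 and Mecom at 0.53 ± 0.475 (SD, n = 3), with Procr and Emcn unread. In control libraries it was Angpt1 at 147 ± 15.2 per kb, Hlf at 21.4 ± 0.929, Mycn at 17.3 ± 6.96, Mllt3 at 17.2 ± 2.52, Procr at 11.1 ± 1.63, Emcn at 7.07 ± 1.52, Slamf1 at 4.83 ± 1.91 and Mecom at 1.74 ± 0.794. Neighbours whose ranges overlapped were Mycn with Hlf, Mllt3 with Slamf1 and Mecom with the unread pair in the libraries labelled knockout, and Hlf with Mycn, Mycn with Mllt3 and Emcn with Slamf1 in control libraries. Angpt1 stood at the 57.1 percentile of per-kb levels among tested genes in the libraries labelled knockout and at the 57.2 percentile in control libraries. The other genes lay low in both groups, at or under the 19.7 percentile in the libraries labelled knockout and the 21.6 percentile in control libraries.

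Together the 8 genes took 43.8, 35.2 and 59.0 reads per M gene reads in the libraries labelled knockout, against 57.9, 49.9 and 59.6 in control libraries. Those ranges overlapped, and Angpt1 made up most of the sum in each library. Without Angpt1 the sum was 307.2, 296.7 and 378.0 normalized counts in the libraries labelled knockout and 542.0, 473.0 and 541.0 in control libraries. These sums include Procr, Emcn and Mllt3, already called lower, so they are no separate result and were not tested. Replicate 1 of the labelled knockout group held the lowest Hlf, Mllt3 and Mecom values and the highest Slamf1 value. Replicate 2 held the lowest Mycn and Angpt1 values, so the 8 transcripts did not go up and down as one from library to library.

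**Figure D3:**
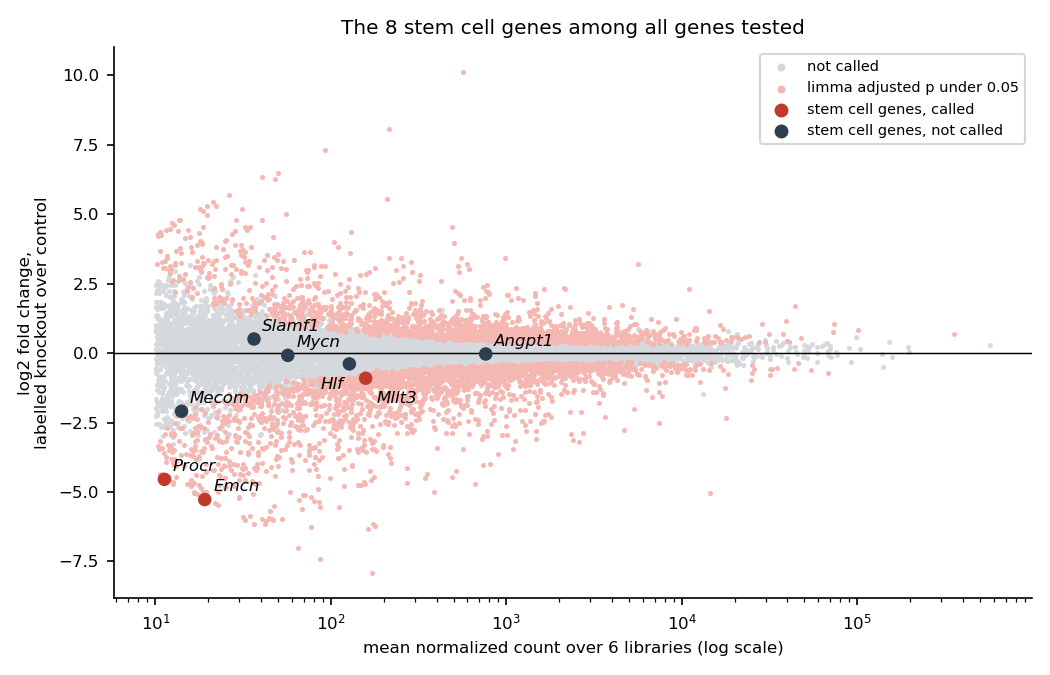
Mean normalized count over the 6 libraries (log axis) against the log2 fold change, libraries labelled knockout over control, for the 14391 genes tested, with called genes in pink and the 8 stem cell genes labelled (red where called). Procr and Emcn lie low in level and far down, Mllt3 lies a little under 0, and Angpt1, the highest in level, lies at 0.

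Binding partners and relatives of the 8 proteins were read from lists chosen by function, with earlier results of these data known. Around Angpt1, the receptor gene Tek had 0 reads in the libraries labelled knockout and 36.4, 13.4 and 6.2 normalized counts in control libraries, at least 5.75-fold lower with 3 reads per library (3.02-fold without control replicate 1), but its overall mean was under the filter and it was not tested. Tie1, named among the endothelial markers and encoding the receptor that pairs with TEK, fell by 3.47 ± 0.55 (SE) on the log2 scale (limma adjusted p = 0.000935). It was the single one of 5 listed genes that was tested, and it passed the filter through its control values alone and so had to differ. The change was -4.07 on the log2 scale without labelled knockout replicate 2.

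Around Procr, 4 of 7 genes listed for the protein C and tissue factor pathways were tested. Of these 2 fell (50%) and 0 rose, beside 15% and 11.8% of all genes tested. Tfpi, which inhibits the tissue factor pathway, stood at 96.9 ± 29.6 against 1522 ± 125.5 normalized counts, 15.7-fold lower in the libraries labelled knockout (log2 fold change -4.00, SE 0.23, limma adjusted p = 1.55e-06). Pros1, the cofactor protein S, was at 21.4 ± 20.6 against 244.0 ± 27.96 (log2 fold change -4.02, SE 0.67, limma adjusted p = 0.00122), or -3.10 and -4.80 on the log2 scale without labelled knockout replicates 1 and 2. Thrombomodulin (Thbd), the cofactor with which thrombin activates protein C, was at 144.0 ± 6.57 against 166.8 ± 25.7 (limma adjusted p = 0.563). The thrombin receptor F2r was at 260.0 ± 69.4 against 169.4 ± 21.1 (limma adjusted p = 0.109). The F2r call was made without labelled knockout replicate 2 (0.0314) and after GC and length correction (0.0295).

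Relatives and adaptors of Slamf1 were called in both directions. Of 10 listed genes 9 were matched and 8 were tested, with 4 lower and 1 higher. These were 50% and 12.5% of those tested, beside 15% and 11.8% of all genes tested. Slamf8 and Slamf6 passed the filter through their control values alone and so had to differ, which leaves the share called lower without weight. Slamf8, a family member of myeloid cells, had 0 reads in the libraries labelled knockout against 73.2 ± 24.2 normalized counts in control libraries, at least 22.5-fold lower. Slamf6 was at 9.67 ± 3.36 against 102.7 ± 22.3 (log2 fold change -3.30, limma adjusted p = 0.000307) and Ly9 at 73.0 ± 16.6 against 338.1 ± 13.2 (-2.22, limma adjusted p = 8.64e-05). Cd48, whose product is absent from the surface of long-term stem cells and present on committed progenitors, fell 1.45-fold, to 6570 ± 271.9 in the libraries labelled knockout against 9539 ± 213.1 in control libraries (limma adjusted p = 0.0028). The 1 that rose, named after its values were seen, was Cd244, a CD48 receptor, at 690.7 ± 167.8 against 436.6 ± 9.30 (limma adjusted p = 0.03), a call lost without any 1 library other than labelled knockout replicate 2 (0.0649 to 0.096).

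Among 6 sialomucins related to endomucin by type, 5 were tested, with 2 lower and 1 higher. These were 40% and 20% of those tested, beside 15% and 11.8% of all genes tested. Cd34 was at 3963 ± 243.6 normalized counts in the libraries labelled knockout and 11500 ± 296.5 in control libraries (log2 fold change -1.54, SE 0.11, limma adjusted p = 5.04e-06), and the selectin ligand Selplg was 1.65-fold lower (limma adjusted p = 0.00362). Podxl, the CD34 relative podocalyxin, rose to 55.8 ± 24.1 in the libraries labelled knockout, against 5.84 ± 5.06 in control libraries (log2 fold change 3.54, SE 0.86, limma adjusted p = 0.0109), or 2.45 on the log2 scale without control replicate 1. Podxl passed the filter through its values in the libraries labelled knockout alone and so had to differ, which leaves the share called higher without weight. Its rise was opposite in direction to the falls of Cd34 and Selplg.

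Among the relatives of MECOM and their corepressors, Prdm16, the closest relative of Mecom and itself needed by stem cells, rose. It was at 144.0, 117.7 and 129.0 normalized counts in the libraries labelled knockout, against 37.3, 51.6 and 47.2 in control libraries (log2 fold change 1.51, SE 0.30, limma adjusted p = 0.00358). The direction of Prdm16 was opposite to that of the mean of Mecom.

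Of 12 genes listed around MLLT3, all tested, 1 rose and 2 fell, or 8.33% and 16.7%, beside 11.8% and 15% of all genes tested. Men1, which encodes menin, was at 637.1 ± 171.4 against 1139 ± 66.2 normalized counts and Kmt2a, the methyltransferase to which MLLT3 is fused in leukemia, at 444.6 ± 84.8 against 726.2 ± 51.2, lower by 0.87 and 0.72 on the log2 scale in the libraries labelled knockout (limma adjusted p = 0.00587 and 0.0103). The Kmt2a call was lost without control replicate 3 (0.0569). Cdk9, the elongation kinase, was 1.36-fold higher (limma adjusted p = 0.0296), a call lost without any 1 of the other libraries than labelled knockout replicate 1 (0.0561 to 0.122). Dot1l, the H3K79 methyltransferase that MLLT3 recruits, was at 235.3 ± 29.6 against 269.8 ± 24.2 (limma adjusted p = 0.491).

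The families of Mycn and Hlf held no called gene. All 10 tested genes of the MYC, MAX and MXD network missed the threshold in limma, Myc at 3690 ± 1084 against 3262 ± 637.5 normalized counts (adjusted p = 0.591) and Max at 458.8 ± 138.5 against 569.8 ± 102.2 (0.291). So did the 3 relatives of Hlf, with Dbp at 44.5 ± 11.1 against 49.7 ± 17.3 (0.86) and Tef at 112.4 ± 42.6 against 139.8 ± 33.4 (0.447).

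**Figure D4:**
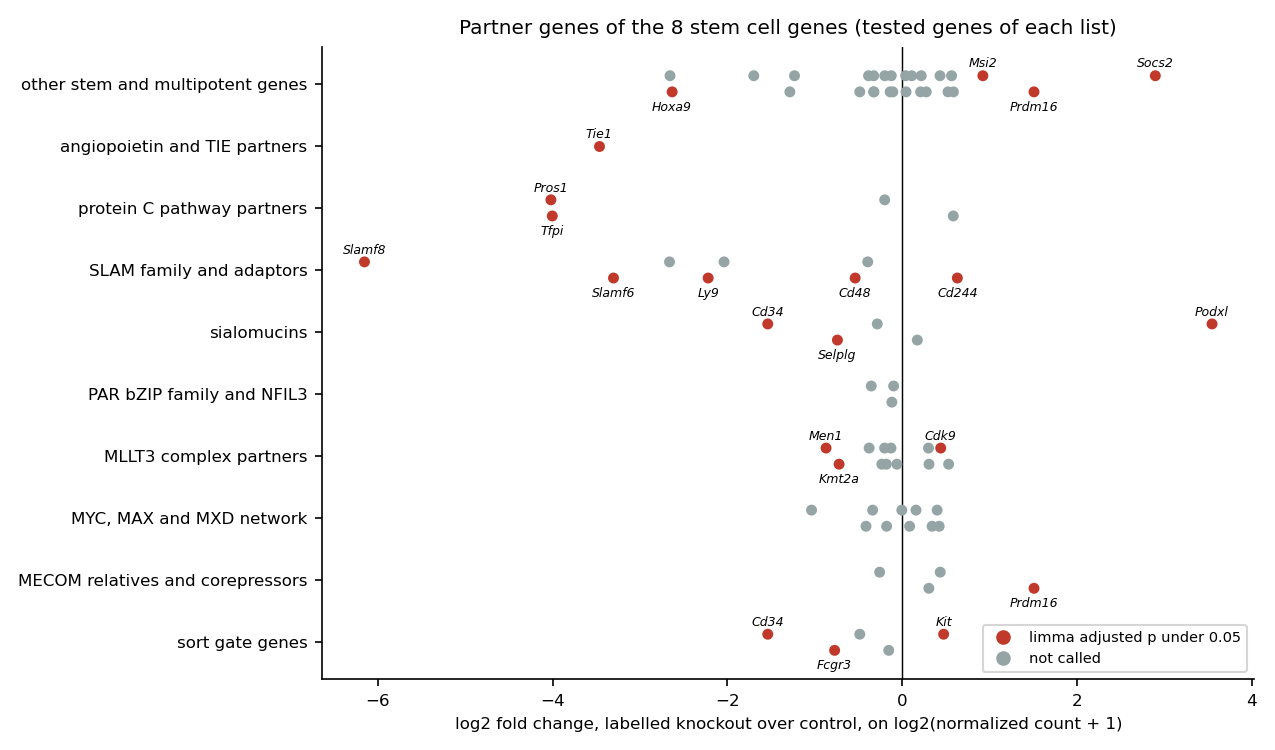
Log2 fold change, libraries labelled knockout over control, of the tested genes in each list of partners and relatives, red and named where the limma adjusted p was under 0.05 and grey where not, apart from genes not reported here. Lists of the SLAM family, the protein C pathway and the angiopoietin and TIE partners reach below -3. All genes of the MYC network and of the PAR family are grey.

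Among 38 other genes of stem and multipotent cells 28 were tested, of which 3 rose and 2 fell, or 10.7% and 7.14%, beside 11.8% and 15% of all genes tested. Their median log2 fold change was -0.12, beside 0.005 over all genes tested. Hoxa9, a homeobox factor of early progenitors, was at 43.7, 76.0 and 121.0 normalized counts in the libraries labelled knockout, against 502.0, 495.9 and 399.3 in control libraries (log2 fold change -2.63, SE 0.33, limma adjusted p = 0.000199). Msi2, an RNA-binding protein that holds progenitors immature and named after its values were seen, was 1.90-fold higher (limma adjusted p = 0.00631). Socs2, a feedback inhibitor of cytokine signals, was at 17.1, 28.1 and 56.0 against 17.8, 2.87 and 0 normalized counts, and its call (limma adjusted p = 0.0475) was lost in edgeR (0.113), in DESeq2 (0.0718) and without any 1 library other than control replicate 1 (0.0593 to 0.151). Its log2 fold change of 2.90 was 3.98 without control replicate 1 and 1.87 without control replicate 3. Socs2 passed the filter through its values in the libraries labelled knockout alone and so had to differ. Ly6a, which encodes the Sca1 antigen that the sort excluded, stood at 59.9 ± 15.7 against 88.6 ± 42.3 (limma adjusted p = 0.391). The sort genes Kit and Fcgr3 were 1.39-fold higher and 1.69-fold lower in the libraries labelled knockout (limma adjusted p = 0.0214 and 0.00198), and the Kit call was lost without labelled knockout replicate 3 (0.054) or control replicate 1 (0.0779) or 3 (0.0937).

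The genes closest in pattern to each of the 8 were found by the Euclidean distance between log2(normalized count + 1) profiles over the 6 libraries, each centred on its own mean. For Procr these were Dse, a dermatan sulfate epimerase gene with 0 reads in every library labelled knockout and 24.0, 23.9 and 22.3 normalized counts in control libraries (distance 0.233), and Stat4 (0.387), which is read at 41.0 ± 3.07 against 933.7 ± 146.2. Emcn lay nearest to the cytokine gene Il18 (0.495) and the ceramidase gene Acer2 (0.619), each also with 0 reads in the libraries labelled knockout. Mllt3 lay nearest to Ints3 (0.159), a subunit of the Integrator complex, and Ccdc186 (0.185). Hlf lay nearest to the TNF receptor gene Tnfrsf1b (0.122) and Tcof1 (0.134), and Angpt1 to the RNA-binding protein gene Celf1 (0.117) and Gm17415 (0.148). Mycn was nearest to Stk35 (0.416) and C030034I22Rik (0.57), Slamf1 to Gm6245 (0.286) and Nhlrc1 (0.371), and Mecom, at 0.921 and 0.981 from Nod2 and Cd5l, had no gene within 0.9. With 6 libraries in 2 groups, genes with a like difference between the groups lie close by construction, and no test was made of the distances.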

How the data were processed

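The deposited values are a signal per gene and library that, from the values themselves, equals gene counts scaled by 1 factor per library. The submitters' processing notes list mm9 and NCBIM37 as builds and STAR, BWA 0.7.5a, Picard, HTSeq and DESeq2 as tools, with no roles. Whether counting used strand could not be read from the labels. Libraries were made from low-input RNA with a SMARTer kit for Ion Torrent, per the labels' protocols. Dividing by the smallest step of each library gave whole reads for 100% of nonzero values (tolerance 0.01 of a read). Here "normalized count" is the deposited value. Genes held 22.9 to 25.2% of the reads listed, and 5 rows that name no gene were left out.

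The limma 3.58.1 fit (R 4.3.3) used log2(deposited value + 1), a variance trend and group alone, 2-sided, over genes with a mean of at least 10; low genes' changes are understated. It replaced a count test because the values are scaled. Alternatives were edgeR 4.0.16 (1686 genes higher, 2067 lower) and DESeq2 1.42.0 on the recovered reads, other pseudocounts, filters and scalings, a replicate block, a spline correction for GC content and length, and each library left out. GENCODE M21 (GRCm38, not the authors' build) gave symbols for 32897 of 37620 gene IDs, exon lengths and overlaps. Replicates differed beyond counting noise (chi-square per gene 13.3 to 51.2). The fit was tested on simulated data. Named were the 8 genes, up to 3 called genes per list by size of change, direct partners, and the 2 nearest profiles of each gene; 6 others, and cell type markers given one by one, were named after their values were seen. Some listed genes are not reported here. Genes and lists were chosen with earlier results of these data known.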

Additional observations from a re-analysis of the deposited data

How the results depend on the processing

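Across the 15 alternatives, Procr and Emcn stayed called lower wherever they were tested (adjusted p up to 0.0199 and 0.0075; leaving out a labelled knockout library cannot move values that are all 0), and Mecom, Hlf and Slamf1 kept their direction uncalled. Over other pseudocounts and tools the fitted values ran from -7.52 (edgeR) to -2.72 (pseudocount 4) for Procr and from -8.28 to -3.38 for Emcn. At a mean value of at least 50, Procr, Emcn, Mecom and Slamf1 were not tested, and 1 gene of the 8 was called lower in place of 3. Mllt3 was lost after GC and length correction (-0.63, adjusted p = 0.087). With 1 library left out, log2 fold changes ran from -4.67 to -4.47 for Procr, -5.41 to -5.11 for Emcn, -1.02 to -0.81 for Mllt3, -0.39 to 0.39 for Mycn and -0.20 to 0.14 for Angpt1, so the last 2 changed sign, as did Angpt1 after GC and length correction (0.33). Among partner genes, Myc (-0.07 to 0.30) and Dbp (-0.43 to 0.10) changed sign with a library left out. Genes called higher numbered 1032 to 1791, and lower 1372 to 2324, with a library left out, against 1695 and 2163 with all (1032 and 1417 without control replicate 2, 1053 and 1372 without control replicate 3), and 2588 and 1877 after GC and length correction, when 42.0% of calls were lower in place of 56.1%. Called lower among partner and stem cell genes were 15, and 14 to 19 with a library left out. Called higher among them were 7, and 14 after that correction. With a library left out 3 to 7 were higher (3 without labelled knockout replicate 3 or control replicate 3, 4 without control replicate 1 or 2). The cause of these shifts was not tested. Equal replicate numbers did not pair the libraries (correlations of their deviations -0.104, 0.042 and -0.058), and with the replicate block 1550 genes were higher and 2014 lower, with Mllt3 at an adjusted p of 0.0286, Procr at 0.00852 and Emcn at 0.00196. For Procr, Emcn and Mecom, with at most 53 reads in a library, depth limits the precision.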
